A study of Mus musculus with 12 samples.

Results

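The interleukin genes of mouse haematopoietic stem and progenitor cells (HSPCs), which give rise to all blood lineages, were examined in 12 bulk RNA sequencing libraries. They were taken as the protein-coding genes whose symbol begins with Il and a digit and that had at least 10 counts summed over the 12 libraries, with Il2rb, Il3ra and Il7r left out by name. Of 54532 genes in the count table, 64 met this rule and 51 passed the low-count filter of the tests. The 64 genes carry 63 symbols, because Il11ra2 was present as 2 gene IDs, on chromosome 4 and on an unplaced scaffold. Another 17 genes of that symbol pattern stayed under 10 counts, 11 of them at 0. At the edge of the rule, Il21 had 10 counts and the scaffold copy of Il11ra2 had 12, whereas Il19 had 9 and Il22ra1 had 6.

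The libraries formed 4 groups of 3. They were HSPCs of aged mice cultured with uridine, HSPCs of aged mice cultured with vehicle, uncultured HSPCs of aged mice, and uncultured HSPCs of young mice. Uridine is a pyrimidine nucleoside, a building block of RNA. All were labelled as wild-type bone marrow. Their genotype is written as c57bl/6 WT for the vehicle samples and with numbers that climb to c57bl/15 WT for the others, which leaves the strain uncertain. The sources used here do not give the ages, the sorting markers, the culture medium and time, the dose of uridine, or whether libraries came from separate animals. The p-values accordingly reflect library-to-library variation alone, some or all of which may be technical.

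Interleukins are secreted proteins through which blood, immune and stromal cells signal to each other, and each acts through a receptor of 1 or more membrane chains. The IL-1 family signals through receptors with an intracellular Toll and interleukin-1 receptor domain and is checked by a secreted antagonist and by decoy receptors. Most other families use receptors that recruit Janus kinases and STAT factors, and they share chains, such as the common gamma chain encoded by Il2rg and the signal-transducing gp130 encoded by Il6st. In bone marrow, IL-1 and IL-6 are known to act on haematopoietic stem and progenitor cells and to favour myeloid output.

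The promoters of Il1a, Il1b, Il1rn and Il6 are shown first, because the ligand results turn on these 4 genes. They are the 250 bases before the start site, read 5′ to 3′ on the gene's own strand, from RefSeq on GRCm38.p6, the assembly of the mm10 build. Capitals mark letters that match a kappaB motif (GGGNNNNTC) or an AP-1 motif (TGANTCA) on either strand, where N is any base. A STAT motif (TTCNNNGAA) was also searched. For Il1rn the most downstream of 3 annotated starts is shown. The window of the most upstream start held other kappaB letters and an AP-1 match, and that of the middle start held the same kappaB site.
Il1a, chr2:129309973-129310222, minus strand: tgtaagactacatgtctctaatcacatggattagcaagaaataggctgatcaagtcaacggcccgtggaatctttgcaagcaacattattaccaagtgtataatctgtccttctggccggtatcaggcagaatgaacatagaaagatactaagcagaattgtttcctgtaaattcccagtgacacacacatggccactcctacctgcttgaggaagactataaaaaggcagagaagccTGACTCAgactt
Il1b, chr2:129371140-129371389, minus strand: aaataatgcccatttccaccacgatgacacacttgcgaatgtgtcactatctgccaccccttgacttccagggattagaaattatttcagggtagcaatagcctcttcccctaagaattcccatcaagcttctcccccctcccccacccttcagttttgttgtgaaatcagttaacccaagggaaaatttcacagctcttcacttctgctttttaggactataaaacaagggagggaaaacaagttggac
Il1rn, chr2:24345121-24345370, plus strand: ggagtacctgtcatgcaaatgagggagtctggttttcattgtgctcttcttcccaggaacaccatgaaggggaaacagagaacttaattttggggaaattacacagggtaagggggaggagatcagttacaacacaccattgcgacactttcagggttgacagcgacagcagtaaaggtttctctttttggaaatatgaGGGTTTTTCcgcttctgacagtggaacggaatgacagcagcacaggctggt
Il6, chr5:30012864-30013113, plus strand: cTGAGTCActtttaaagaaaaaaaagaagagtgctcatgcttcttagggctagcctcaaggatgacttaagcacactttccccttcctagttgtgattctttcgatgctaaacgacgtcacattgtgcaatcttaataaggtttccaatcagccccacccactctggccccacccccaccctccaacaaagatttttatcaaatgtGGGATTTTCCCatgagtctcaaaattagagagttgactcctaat
The AP-1 match of Il1a began 12 bases before its start, and the kappaB match of Il1rn began 51 bases before its start. Il6 held an AP-1 match 249 bases before its start and overlapping kappaB matches 44 and 42 bases before it. The Il1b stretch held no match, and its window had 1 kappaB match after the start. RefSeq windows of 300 bases were found for 50 of the 64 genes, 64 windows in all. Of these windows 39 held the kappaB letters, 10 the AP-1 letters and 7 the STAT letters, that is 60.9%, 15.6% and 10.9%. The same letters were in 46.3%, 7.81% and 8.30% of all 32851 promoter windows. A match describes letters only and marks no binding site.

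Library totals ran from 16785065 to 19025802 counts. All 8 stem and progenitor markers, among them Kit, Cd34 and Flt3, were detected in every group, and their summed level was 954 to 986 CPM in uridine cultures, 987 to 1004 CPM in vehicle cultures, 674 to 714 CPM in uncultured aged cells and 932 to 948 CPM in uncultured young cells. CPM are counts per library size after TMM scaling. In the tests described below, 3 of these 8 markers were higher and 4 lower in aged than in young uncultured cells. Against uncultured aged cells, 3 were higher and 2 lower in vehicle cultures, and 4 higher and 1 lower in uridine cultures. Between the cultures, 2 were higher and 2 lower in uridine. Markers of mature cells were present too. Immunoglobulin genes and Jchain took 0.606% of counts in uridine cultures, 0.923% in vehicle cultures, 21.8% in uncultured aged cells and 0.543% in uncultured young cells. Across 145 genes at least 10 times higher in young cells than in vehicle cultures, uridine cultures lay a median fraction of 0.333 of the way from the vehicle to the young level (quartiles 0.310 and 0.363). Whether the uridine libraries hold RNA of young cells or carry a wrong label was not tested, and every uridine value below is given with that limit. In bulk samples, fewer cells of a type and less RNA per cell cannot be told apart.

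Interleukin genes changed between uncultured aged and young cells in both directions. Of the 51 genes tested, 20 were higher and 21 lower in aged cells, and 10 passed the test in neither direction (edgeR quasi-likelihood F-test, Benjamini-Hochberg adjusted p under 0.05 over 16675 genes). Called genes made up 80.4% of the interleukin genes, against a background of 65.3% of all genes tested, of which 33.2% were higher and 32.1% lower. By at least 1 on the log2 scale, 13 were higher and 11 lower, against 12.6% and 9.04% of all genes. The libraries of the groups did not overlap for 44 of the 51, against 66.9% of all genes. The 13 genes below the filter had 10 to 60 counts in all 12 libraries together and were not tested.

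Culture moved them again. In uridine cultures against uncultured aged cells 25 were higher and 16 lower, against 35.8% and 32.1% of all genes (67.9% in either direction), and in vehicle cultures against uncultured aged cells 24 were higher and 16 lower, against 35.4% and 35.1% of all genes (70.5%). By at least 1 on the log2 scale, 15 were higher and 6 lower in uridine cultures, against 12.0% and 13.1% of all genes, and 14 were higher and 7 lower in vehicle cultures, against 11.6% and 17.2%. These comparisons share the uncultured aged libraries, which are also on the aged side of the age comparison, so their values are only set side by side. The libraries did not overlap for 41 of the 51 genes in uridine cultures, against 69.3% of all genes, and for 42 in vehicle cultures, against 71.5%. Culture was compared with no culture, so its medium and its length cannot be told apart.

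Uridine cultures against vehicle cultures gave fewer and smaller changes, with 8 genes higher, 19 lower and 24 not called. The share called was 52.9%, against a background of 38.1% of all genes (20.0% higher, 18.1% lower). Changes of at least 1 on the log2 scale were 6 higher and 1 lower, against 6.32% and 0.708% of all genes. Most of these calls were lost under 1 alternative. When 0.333 of the mean young level was subtracted from each uridine library, 1 of the 51 was called, Il2rg, against 16.4% of 16758 genes tested under it. Each uridine against vehicle call given below for another gene is therefore lost with that subtraction. The share was estimated from these same libraries, and after subtraction negative values were set to 0 and the rest scaled up. Because uridine levels mostly lay between vehicle and young levels, the subtraction tends to shrink uridine against vehicle differences by construction.

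**Figure D1:**
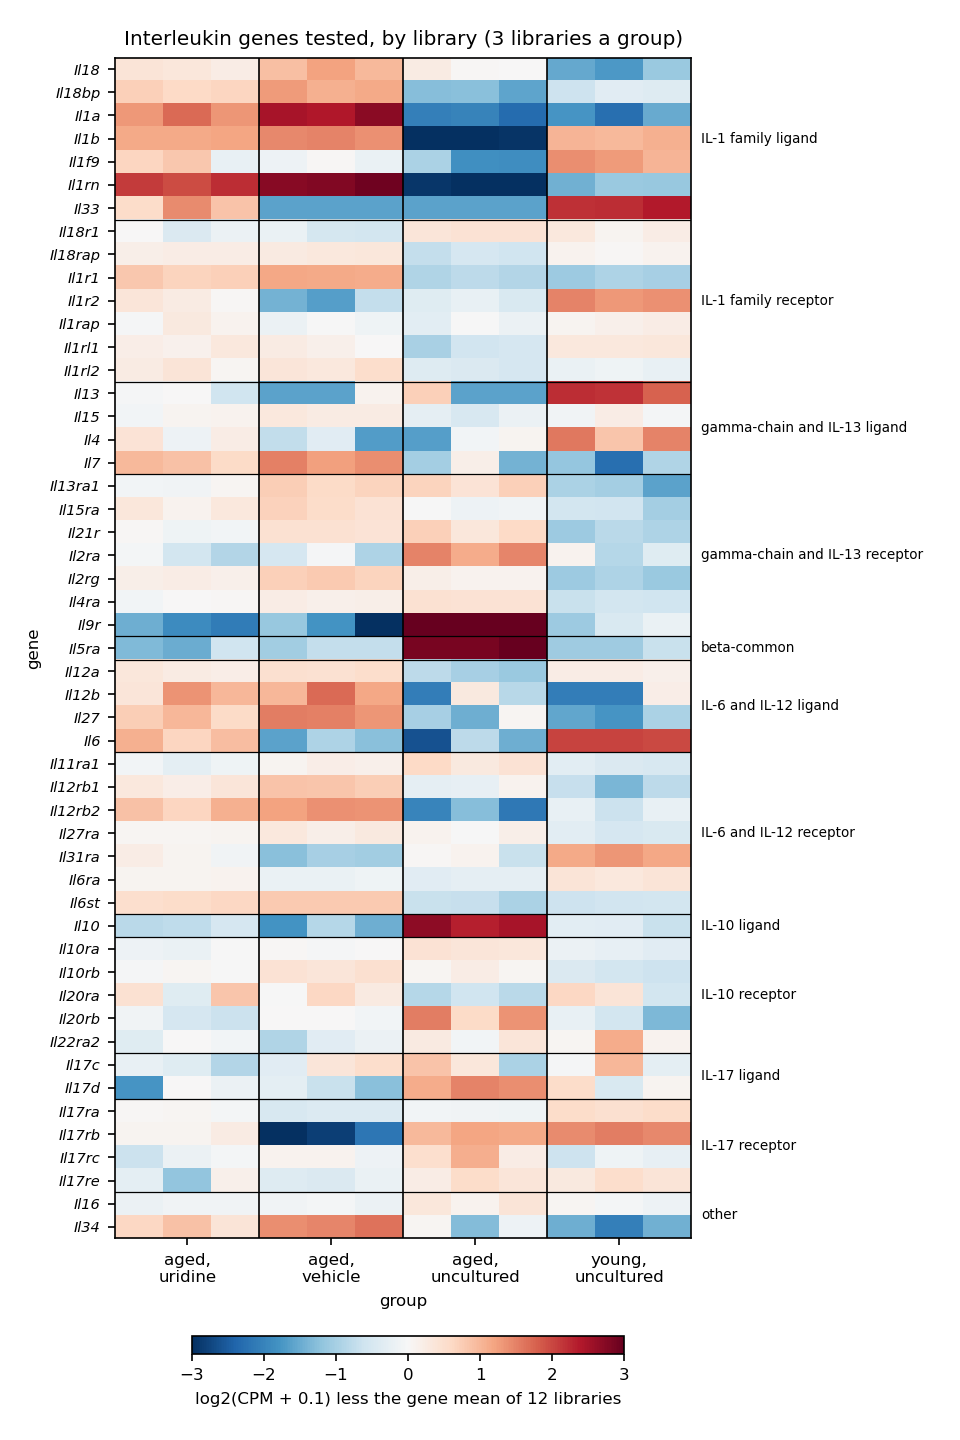
Level of each of the 51 tested interleukin genes in each of the 12 libraries, with libraries in columns (uridine cultures, vehicle cultures, uncultured aged cells, uncultured young cells) and genes in rows by role. Colour is log2(CPM + 0.1) less that gene's mean over the libraries. Il1a, Il1b and Il1rn are high in both cultures and low in uncultured aged cells, and Il9r, Il5ra and Il10 are high in uncultured aged cells alone.

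Between genes, levels were compared per exon length, as RPKM. The common gamma chain gene Il2rg had the highest level in 3 groups, at 33.1 RPKM in uridine cultures, 48.2 in vehicle cultures and 31.9 in uncultured aged cells. In uncultured young cells Il17ra was highest, at 26.1 RPKM, and Il2rg was at 14.2 RPKM. Il12a, which encodes the p35 subunit of IL-12 and IL-35, was the most abundant ligand gene in both cultures and in young cells, at 18.9 RPKM in uridine cultures, 22.2 in vehicle cultures and 18.1 in uncultured young cells. The IL-1 ligand genes summed to 33.2 RPKM in uridine cultures, 47.9 in vehicle cultures, 8.28 in uncultured aged cells and 19.1 in uncultured young cells. The receptor genes of the gamma chain and IL-13 family summed to 59.8, 82.2, 74.1 and 30.0 RPKM in the same 4 groups.

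Among the IL-1 family ligands and antagonists, 5 of 7 tested genes were lower and 1 higher in aged than in young uncultured cells, and 6 of 7 were higher in each culture than in uncultured aged cells. In uridine against vehicle cultures 5 were lower and 1 higher. Of all genes tested, 33.2% were higher and 32.1% lower with age, and 20% higher and 18.1% lower in uridine against vehicle cultures. Against uncultured aged cells, 35.8% were higher and 32.1% lower in uridine cultures, and 35.4% higher and 35.1% lower in vehicle cultures. These shares stand beside the counts of each family and marker list below. Il1b (ENSMUSG00000027398, chr2:129364570-129371139 on the minus strand), which encodes the secreted inflammatory cytokine IL-1β, had 22.6, 22.5 and 23.2 CPM in uridine cultures, 27.9, 28.8 and 26.7 in vehicle cultures, 0.266, 1.11 and 1.24 in uncultured aged cells and 20.9, 20.3 and 21.5 in uncultured young cells. All 3 uncultured aged libraries lay below 2 CPM, far below every library of the other groups. Il1b fell in aged against young cells (log2 fold change -4.58, SE 0.182, adjusted p = 2.45e-22) and rose in vehicle cultures against uncultured aged cells (log2 fold change 4.99, SE 0.176, adjusted p = 3.39e-24) and in uridine cultures against them (log2 fold change 4.7, SE 0.179, adjusted p = 4.93e-23). It was slightly lower in uridine than in vehicle cultures, with no overlap (log2 fold change -0.29, adjusted p = 0.0174), and that call was lost without vehicle replicate 1, vehicle replicate 2, uridine replicate 1 or uridine replicate 2 (adjusted p 0.0501 to 0.0656).

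Il1rn (ENSMUSG00000026981, chr2:24336853-24351494 on the plus strand), the gene of the IL-1 receptor antagonist, had 31.0, 28.0 and 33.5 CPM in uridine cultures, 47.9, 50.2 and 55.1 in vehicle cultures, 0.866, 0.278 and 0.413 in uncultured aged cells and 2.6, 3.29 and 3.23 in uncultured young cells. The cultures were highest, young cells intermediate and uncultured aged cells lowest, with no overlap between any of the pairs compared. It was lower in aged than in young cells (log2 fold change -2.51, adjusted p = 9.57e-10) and had the largest rises in culture among the interleukin genes with counts in every group, with log2 fold change 5.86, SE 0.184, adjusted p = 1.07e-25 in uridine cultures and log2 fold change 6.59, SE 0.173, adjusted p = 3.15e-28 in vehicle cultures. Uridine cultures were lower than vehicle cultures (log2 fold change -0.73, SE 0.0870, adjusted p = 1.42e-08). Il1a (ENSMUSG00000027399, chr2:129299610-129309972 on the minus strand), which encodes the mostly cell-associated IL-1α, had 3.64, 4.86 and 3.73 CPM in uridine cultures, 8.31, 8.02 and 9.94 in vehicle cultures, 0.266, 0.278 and 0.207 in uncultured aged cells and 0.350, 0.219 and 0.437 in uncultured young cells. It was high in the cultures alone, and aged and young uncultured libraries overlapped. It rose by 5.09 in vehicle and by 3.99 in uridine cultures against uncultured aged cells on the log2 scale, and was lower in uridine than in vehicle cultures (log2 fold change -1.1, SE 0.189, adjusted p = 1.19e-05). The exons of Il1a share 11.2% of their bases with an antisense gene, Gm14023, and whether the counting used strand is not given in the sources used here.

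Il18, the gene of a cytokine released by inflammasome cleavage, followed age in the other direction. It had 7.63, 7.37 and 6.81 CPM in uridine cultures, 11.0, 13.4 and 11.4 in vehicle cultures, 6.92, 5.98 and 5.86 in uncultured aged cells and 1.95, 1.7 and 2.62 in uncultured young cells. Every aged library, cultured or not, was above the young ones. It was higher in aged than in young cells (log2 fold change 1.58, adjusted p = 2.48e-09), higher in vehicle cultures than in uncultured aged cells (0.93) and lower in uridine than in vehicle cultures (-0.71, adjusted p = 9.45e-05). Il18bp encodes the soluble protein that binds IL-18 and blocks it, and had 15.7, 14.3 and 14.8 CPM in uridine cultures, 23.2, 20.0 and 20.8 in vehicle cultures, 3.86, 3.9 and 3.1 in uncultured aged cells and 6.15, 7.5 and 7.27 in uncultured young cells. It did not move with its ligand in the age comparison, falling by 0.94 on the log2 scale in aged against young cells. It rose in both cultures against uncultured aged cells (log2 fold change 2.04, SE 0.138, adjusted p = 1.49e-15 in uridine and log2 fold change 2.56, SE 0.135, adjusted p = 8.56e-19 in vehicle cultures) and was lower in uridine than in vehicle cultures (-0.52).

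Absence from 2 groups set Il33 apart. Il33 encodes an alarmin of barrier and stromal cells that is stored in the nucleus. It had 0.345, 0.716 and 0.448 CPM in uridine cultures, 0 counts in every vehicle and every uncultured aged library, and 1.3, 1.31 and 1.48 CPM in uncultured young cells. Against a floor of 3 counts over a group, it was at least 7.32-fold higher in uridine cultures than in uncultured aged cells, at least 9.16-fold higher in uridine than in vehicle cultures, and at least 19.9-fold lower in aged than in young uncultured cells. Its call in uridine cultures against uncultured aged cells was lost with the young-like share subtracted (edgeR adjusted p = 0.078). Its uridine level was 0.369 of the young level, beside the median fraction of 0.333 given above. Stroma and endothelium markers, all 6 detected, summed to 264 to 271 CPM in uridine cultures, 144 to 146 CPM in vehicle cultures, 115 to 125 CPM in uncultured aged cells and 596 to 619 CPM in uncultured young cells. Taken singly, 1 was higher and 5 lower in vehicle cultures than in uncultured aged cells, unlike the sum. With age 1 was higher and 4 lower, and 4 were higher and 1 lower in uridine than in vehicle cultures. In uridine cultures against uncultured aged cells 3 were higher and 2 lower. The part of these markers in the Il33 result was not tested. The seventh ligand tested, Il1f9, which encodes the IL-36 cytokine IL-36γ, averaged 2.49 CPM in uridine cultures, 1.64 in vehicle cultures, 0.565 in uncultured aged cells and 4.3 in uncultured young cells, and the call was lower with age and higher in each culture.

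Markers of monocytes and macrophages were mostly called in the same directions as Il1b, Il1rn and Il18bp. Il1a, Il18, Il33 and Il1f9 each differed from these markers in some comparison. All 7, among them Csf1r and Cd14, were detected in every group, and they summed to 726 to 750.0 CPM in uridine cultures, 1012 to 1037 CPM in vehicle cultures, 169 to 177 CPM in uncultured aged cells and 356 to 373 CPM in uncultured young cells. Against uncultured aged cells 7 of 7 were higher in each culture, 6 of 7 were lower in uridine than in vehicle cultures, and 6 of 7 were lower in aged than in young cells. Mature neutrophil markers, all 6 detected, summed to 1860.4 to 1928 CPM in uridine cultures, 227 to 234 CPM in vehicle cultures, 512 to 548 CPM in uncultured aged cells and 5016 to 5241 CPM in uncultured young cells. All 6 were lower with age and higher in uridine than in vehicle cultures. Megakaryocyte markers, all 3 detected, summed to 511 to 536 CPM in uridine cultures, 795 to 801 CPM in vehicle cultures, 65.4 to 70.0 CPM in uncultured aged cells and 124 to 132 CPM in uncultured young cells. All 3 were higher in each culture than in uncultured aged cells and lower in uridine than in vehicle cultures, and 2 of 3 were lower with age. Megakaryocyte markers were thus also mostly called in the same directions as Il1b, Il1rn and Il18bp. Erythroid markers, 5 in number, summed to 73.2 to 81.6 CPM in uridine cultures, 5.44 to 7.74 CPM in vehicle cultures, where Slc4a1 was at 0, 61.2 to 68.9 CPM in uncultured aged cells and 213 to 227 CPM in uncultured young cells. All 5 erythroid markers were lower with age, lower in vehicle cultures than in uncultured aged cells, and higher in uridine than in vehicle cultures. The part of these cells in the ligand results was not tested.

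**Figure D2:**
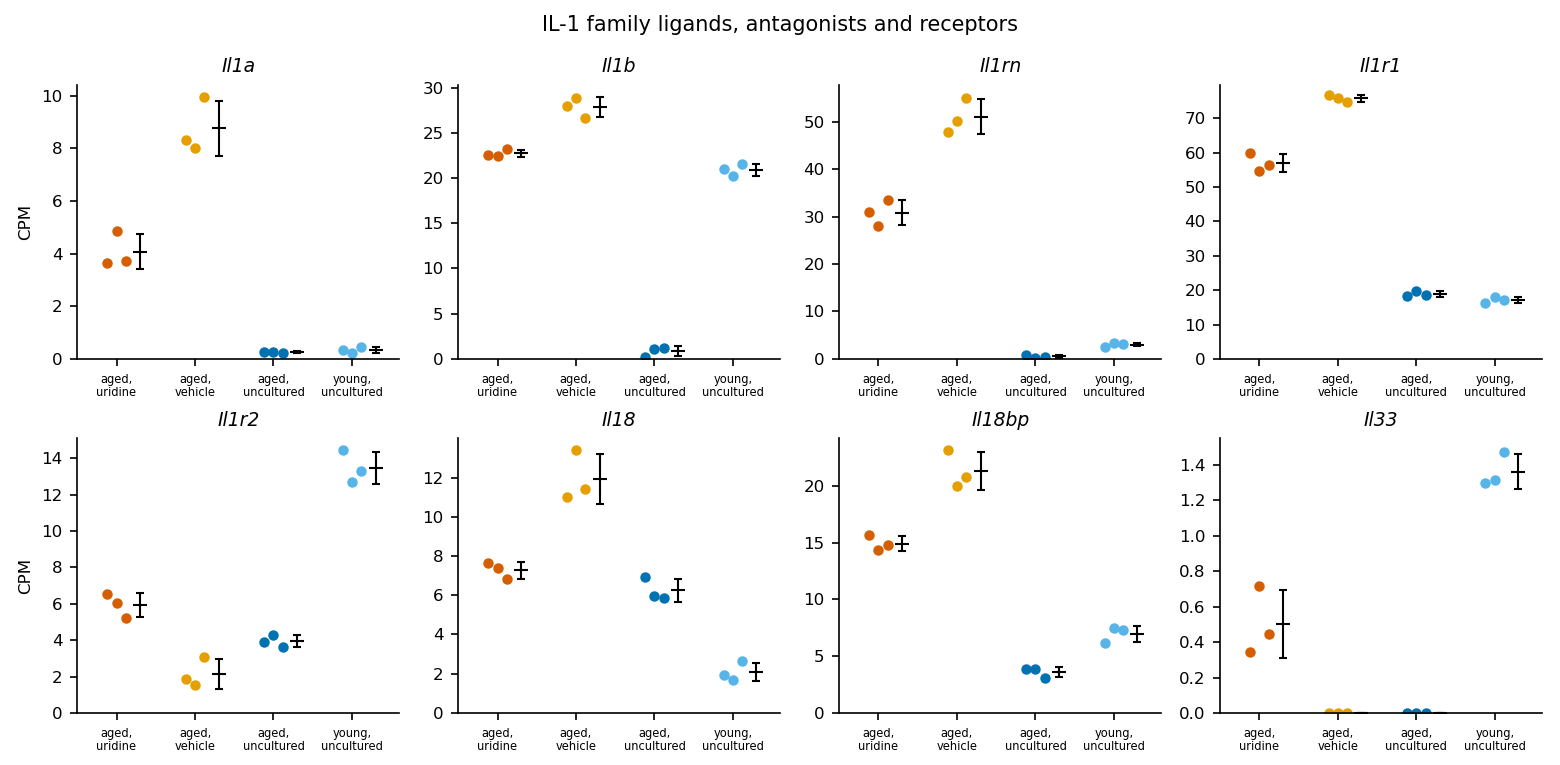
Level of IL-1 family genes in CPM in each library (points), with the group mean and SD beside them, for uridine cultures, vehicle cultures, uncultured aged cells and uncultured young cells. Il1rn reaches a mean of 30.8 CPM in uridine and 51.0 CPM in vehicle cultures, against 0.519 CPM in uncultured aged cells.

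The IL-1 family receptors were mostly lower with age, 5 of 7 tested and none higher, and mostly higher in culture. In uridine cultures 6 were higher than in uncultured aged cells and 1 lower, and in vehicle cultures 4 were higher and 2 lower. Il1r1 (ENSMUSG00000026072, chr1:40225080-40317257 on the plus strand), the signalling IL-1 receptor, had 59.9, 54.6 and 56.5 CPM in uridine cultures, 76.7, 76.0 and 74.7 in vehicle cultures, 18.2, 19.8 and 18.6 in uncultured aged cells and 16.2, 18.0 and 17.2 in uncultured young cells. Both cultures were far above all uncultured libraries, and the adjusted p for age was 0.114. It rose in uridine cultures (log2 fold change 1.6, SE 0.0688, adjusted p = 2.17e-21) and in vehicle cultures (log2 fold change 2.01, SE 0.0679, adjusted p = 1.00e-24) against uncultured aged cells and was lower in uridine than in vehicle cultures (log2 fold change -0.41, SE 0.0578, adjusted p = 3.71e-07). Il1r2 (ENSMUSG00000026073, chr1:40074079-40125231 on the plus strand), the decoy receptor that binds IL-1 without signalling, ran the other way between the cultures, with 6.55, 6.04 and 5.22 CPM in uridine cultures, 1.84, 1.54 and 3.05 in vehicle cultures, 3.93, 4.31 and 3.65 in uncultured aged cells and 14.4, 12.7 and 13.3 in uncultured young cells. None of the compared groups overlapped, and young cells were highest. Il1r2 fell by 1.76 on the log2 scale with age and was higher in uridine than in vehicle cultures (log2 fold change 1.47, SE 0.194, adjusted p = 1.03e-07). It was lower in vehicle cultures than in uncultured aged cells (-0.89) and higher in uridine cultures (0.58), but with the young-like share subtracted the uridine value turned to -0.88 (adjusted p = 0.00979).

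Il18rap, a signalling chain of the IL-18 receptor, averaged 65.5 ± 1.39 CPM in uridine cultures, 70.4 ± 1.76 CPM in vehicle cultures, 37.3 ± 2.62 CPM in uncultured aged cells and 59.9 ± 1.74 CPM in uncultured young cells (SD, n = 3 each), was lower with age (-0.69 on the log2 scale) and higher in each culture than in uncultured aged cells. Il1rl1, the receptor for IL-33, averaged 17.0 CPM in uridine cultures, 16.2 in vehicle cultures, 9.16 in uncultured aged cells and 18.3 in uncultured young cells, and uncultured aged cells were again the lowest group. Il18r1 was lower in both cultures than in uncultured aged cells, by 0.59 in uridine and 0.82 in vehicle cultures. The other 2 age calls were lost when certain single libraries were left out. That of Il1rl2, the IL-36 receptor, was lost without young replicate 1, young replicate 2, aged replicate 2 or aged replicate 3 (adjusted p 0.0574 to 0.108), and that of Il1rap, the shared accessory chain, was lost without aged replicate 1 (adjusted p 0.0552). The Il1rap call in uridine cultures against uncultured aged cells was lost without aged replicate 1 or uridine replicate 2 (adjusted p 0.0884 to 0.106).

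All 7 tested receptor genes of the gamma chain and IL-13 family were higher in aged than in young uncultured cells, 6 of them by at least 1 on the log2 scale. None of the 4 tested ligand genes of the family was higher with age, and 3 were lower (Il4, Il13 and Il15). Il2rg (ENSMUSG00000031304, chrX:101264378-101268255 on the minus strand) had 78.5, 81.3 and 77.1 CPM in uridine cultures, 115, 119.6 and 111 in vehicle cultures, 79.0, 74.9 and 74.8 in uncultured aged cells and 32.7, 36.7 and 32.3 in uncultured young cells. Uncultured young libraries were the lowest and vehicle cultures the highest, and uridine cultures overlapped uncultured aged cells. Il2rg rose with age (log2 fold change 1.17, SE 0.0545, adjusted p = 3.28e-20) and in vehicle cultures against uncultured aged cells (0.60), and was lower in uridine than in vehicle cultures (log2 fold change -0.55, SE 0.0471, adjusted p = 6.48e-12). This was the one uridine against vehicle call that remained with the young-like share subtracted. The exons of Il2rg share 30.5% of their bases with the read-through gene Gm20489, which leaves the assignment of its reads uncertain.

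Il4ra, the chain shared by the IL-4 and IL-13 receptors, had 69.2, 73.1 and 75.4 CPM in uridine cultures, 85.4, 81.1 and 82.1 in vehicle cultures, 100.1, 98.4 and 98.0 in uncultured aged cells and 45.7, 50.1 and 48.5 in uncultured young cells. Uncultured aged libraries were highest and young ones lowest. It rose with age (log2 fold change 1.04, SE 0.0493, adjusted p = 5.39e-20) and was lower in uridine (-0.45) and vehicle cultures (-0.25) than in uncultured aged cells. Il21r, the receptor of the T cell cytokine IL-21, had 22.8, 20.3 and 20.9 CPM in uridine cultures, 30.7, 30.7 and 29.4 in vehicle cultures, 36.6, 27.9 and 33.4 in uncultured aged cells and 10.3, 12.5 and 11.6 in uncultured young cells. It rose with age (log2 fold change 1.51, SE 0.0982, adjusted p = 6.19e-16), its uridine libraries lay below those of uncultured aged cells (-0.61), and vehicle and uncultured aged libraries overlapped. Il13ra1, the IL-13 binding chain, had 8.86, 8.7 and 9.75 CPM in uridine cultures, 15.7, 14.1 and 15.0 in vehicle cultures, 15.0, 12.5 and 15.6 in uncultured aged cells and 4.8, 4.6 and 3.01 in uncultured young cells. It rose by 1.79 on the log2 scale with age and was lower in uridine cultures than in vehicle cultures (-0.71) and in uncultured aged cells (-0.66). Il2ra, the high-affinity chain of the IL-2 receptor, had 2.27, 1.59 and 1.24 CPM in uridine cultures, 1.63, 2.31 and 1.19 in vehicle cultures, 6.79, 5.22 and 6.68 in uncultured aged cells and 2.55, 1.26 and 1.8 in uncultured young cells. Only uncultured aged libraries were above 5 CPM, and the cultures overlapped each other. It rose by 1.72 with age and fell by 1.87 in uridine and 1.86 in vehicle cultures. Il15ra was the exception in culture, rising in both against uncultured aged cells, by 0.35 in uridine and 0.66 in vehicle cultures. Its lower call in uridine against vehicle cultures was lost without vehicle replicate 1 or uridine replicate 2 (adjusted p 0.0822 to 0.0853).

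The ligands of this family were low, except Il15, which averaged 12.4 ± 0.902 CPM in uridine cultures, 14.5 ± 0.452 CPM in vehicle cultures, 9.79 ± 1.05 CPM in uncultured aged cells and 12.2 ± 1.56 CPM in uncultured young cells (SD, n = 3 each). Its age call was lost without young replicate 2 or aged replicate 2 (adjusted p 0.116 to 0.160) and its uridine call against uncultured aged cells without aged replicate 2 or uridine replicate 3 (adjusted p 0.0535 to 0.0815). Il4, a cytokine of basophils, mast cells and T helper cells, averaged 1.7 CPM in uridine cultures, 0.797 in vehicle cultures, 1.13 in uncultured aged cells and 3.92 in uncultured young cells. It was lower with age (-1.8). Its higher call in uridine against vehicle cultures (1.08) was lost without vehicle replicate 1, vehicle replicate 3, uridine replicate 1 or uridine replicate 3 (adjusted p 0.0571 to 0.158). Il13 was also highest in young cells, with 0.399, 0 and 0 CPM in uncultured aged cells and a mean of 1.16 CPM in young ones. All 6 of its aged counts were in aged replicate 1, and without that library its fitted log2 fold change with age, -3.03, became -7.41 against a group at 0 counts. Mast cell and basophil markers, all 6 detected, summed to 551 to 565 CPM in uridine cultures, 378 to 387 CPM in vehicle cultures, 167 to 176 CPM in uncultured aged cells and 1019 to 1067 CPM in uncultured young cells, and their part in the Il4 and Il13 results was not tested. Il7, a lymphoid growth factor made chiefly by stroma, averaged 1.67 CPM in uridine cultures, 2.53 in vehicle cultures, 0.573 in uncultured aged cells and 0.299 in uncultured young cells, and rose in both cultures against uncultured aged cells (1.54 in uridine, 2.13 in vehicle cultures).

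Il9r, Il5ra and Il10 were high in uncultured aged cells alone. Il9r (ENSMUSG00000020279, chr11:32187541-32200279 on the minus strand), the ligand-binding chain of the IL-9 receptor, had 0.443, 0.307 and 0.249 CPM in uridine cultures, 0.578, 0.330 and 0.0565 in vehicle cultures, 31.0, 37.6 and 31.5 in uncultured aged cells and 0.600, 0.986 and 1.2 in uncultured young cells. Each uncultured aged library was above 30 CPM and no other library reached 2 CPM. It rose with age (log2 fold change 5.17, SE 0.205, adjusted p = 2.41e-22) and fell in uridine (log2 fold change -6.61, SE 0.239, adjusted p = 8.76e-24) and vehicle cultures (log2 fold change -6.64, SE 0.244, adjusted p = 1.30e-23) against uncultured aged cells. Il5ra (ENSMUSG00000005364, chr6:106710357-106749037 on the minus strand), the ligand-binding chain of the IL-5 receptor, known from eosinophils and B-1 cells, had 1.63, 1.43 and 2.74 CPM in uridine cultures, 2.0, 2.53 and 2.54 in vehicle cultures, 30.8, 30.8 and 34.7 in uncultured aged cells and 1.95, 1.97 and 2.62 in uncultured young cells. It rose with age (log2 fold change 3.88, SE 0.164, adjusted p = 1.77e-21) and fell in uridine (log2 fold change -4.05, SE 0.166, adjusted p = 4.32e-22) and vehicle cultures (log2 fold change -3.77, SE 0.163, adjusted p = 2.11e-21). Il10 (ENSMUSG00000016529, chr1:131019845-131024974 on the plus strand), the gene of an anti-inflammatory cytokine, had 1.03, 1.07 and 1.29 CPM in uridine cultures, 0.473, 0.989 and 0.621 in vehicle cultures, 12.6, 9.95 and 11.0 in uncultured aged cells and 1.5, 1.48 and 1.15 in uncultured young cells. Its uncultured aged libraries were again apart from the rest. On the log2 scale it rose by 3.01 with age (adjusted p = 5.07e-14) and fell by 3.29 in uridine and 4.0 in vehicle cultures. In the fit of all 12 libraries no test between the cultures passed for any of the 3, with adjusted p of 0.976 for Il9r, 0.340 for Il5ra and 0.0843 for Il10. Without vehicle replicate 2, Il10 was called higher in uridine cultures (adjusted p = 0.0305). Without uridine replicate 3, Il5ra was called lower in them (adjusted p = 0.0419).

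Summed plasma cell and T cell markers were, like these 3 genes, highest in uncultured aged cells. All 5 plasma cell markers, among them Jchain and Sdc1, were detected in every group and were higher with age, and they summed to 644 to 664 CPM in uridine cultures, 1009 to 1053 CPM in vehicle cultures, 24641 to 24906 CPM in uncultured aged cells and 509 to 518 CPM in uncultured young cells. T cell markers, all 6 detected and 5 of 6 higher with age, summed to 8.57 to 10.2 CPM in uridine cultures, 4.36 to 5.05 CPM in vehicle cultures, 52.3 to 57.9 CPM in uncultured aged cells and 18.6 to 20.5 CPM in uncultured young cells. Of 6 markers of NK and innate lymphoid cells, 2 were higher and 1 lower with age, and they summed to 14.3 to 16.5 CPM in uridine cultures, 9.5 to 12.1 CPM in vehicle cultures, 29.6 to 34.6 CPM in uncultured aged cells and 19.5 to 22.5 CPM in uncultured young cells. Each of the 5 plasma cell and 6 T cell markers was lower in both cultures than in uncultured aged cells. Between the cultures they differed from the 3 genes, none of which was called there in the fit of all 12 libraries. In uridine against vehicle cultures 3 of 5 plasma cell markers were lower and 5 of 6 T cell markers were higher. Eosinophil markers ran differently, with all 3 lower in aged than in young cells. The part of these cells in the results for Il9r, Il5ra, Il10 and the receptors of the gamma chain family was not tested. Leaving immunoglobulin genes and Jchain out before scaling changed the call of none of the 51 genes.

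Of the IL-6 and IL-12 family ligands, 2 of 4 tested were lower with age, and all 4 were higher in uridine cultures than in uncultured aged cells. Il6 (ENSMUSG00000025746, chr5:30013114-30019981 on the plus strand), the gene of an acute-phase and myeloid-promoting cytokine, had 14.9, 11.1 and 13.5 CPM in uridine cultures, 2.26, 3.68 and 2.88 in vehicle cultures, 1.07, 4.04 and 2.48 in uncultured aged cells and 28.9, 29.1 and 28.0 in uncultured young cells. Young cells were highest, uridine cultures came between, and vehicle cultures and uncultured aged cells overlapped at the lowest level. It fell with age (log2 fold change -3.51, SE 0.192, adjusted p = 4.01e-18), and it rose in uridine cultures against vehicle cultures (log2 fold change 2.16, SE 0.190, adjusted p = 9.33e-12) and against uncultured aged cells (log2 fold change 2.39, SE 0.205, adjusted p = 9.82e-13). Vehicle cultures against uncultured aged cells gave an adjusted p of 0.447. Without aged replicate 2, Il6 was called higher in vehicle cultures (log2 fold change 0.74, adjusted p = 0.0182). With the young-like share subtracted, the uridine against vehicle value was 0.87 (adjusted p = 0.0857).

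Il12a (ENSMUSG00000027776, chr3:68690644-68698547 on the plus strand) had 34.0, 31.6 and 30.8 CPM in uridine cultures, 37.4, 37.0 and 38.7 in vehicle cultures, 15.4, 13.4 and 12.3 in uncultured aged cells and 31.4, 31.3 and 29.6 in uncultured young cells. Uncultured aged libraries were the lowest, and none of the compared groups overlapped. It fell with age (log2 fold change -1.17, SE 0.0862, adjusted p = 2.16e-14) and rose in uridine (log2 fold change 1.23, SE 0.0855, adjusted p = 3.01e-15) and vehicle cultures (log2 fold change 1.46) against uncultured aged cells. Its small lower value in uridine than in vehicle cultures (-0.23) was lost as a call without vehicle replicate 3 or uridine replicate 3 (adjusted p 0.0533 to 0.0605). Il12b, which encodes the p40 subunit that p35 needs to form IL-12, was far lower, at 0.720 CPM in uridine cultures, 0.949 in vehicle cultures, 0.185 in uncultured aged cells and 0.128 in uncultured young cells. Its uridine call against uncultured aged cells was lost without aged replicate 1, aged replicate 3, uridine replicate 2 or uridine replicate 3 (adjusted p 0.0546 to 0.132). Il27, which encodes the p28 subunit of IL-27, had 3.59, 4.3 and 3.18 CPM in uridine cultures, 6.31, 6.21 and 5.42 in vehicle cultures, 0.999, 0.696 and 2.2 in uncultured aged cells and 0.650, 0.548 and 1.04 in uncultured young cells. It was higher in both cultures than in uncultured aged cells, by 1.5 in uridine and 2.2 in vehicle cultures, and lower in uridine than in vehicle cultures (-0.70), a call lost without vehicle replicate 1, vehicle replicate 2, uridine replicate 1 or uridine replicate 3 (adjusted p 0.0554 to 0.0834). Its exons share 10.1% of their bases with Apobr on the other strand.

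The receptors of this family were called in both directions. With age 3 of 7 tested were higher and 4 lower, against 33.2% and 32.1% of all genes. In uridine against vehicle cultures 2 were higher and 5 lower, against 20% and 18.1% of all genes. Il6st (ENSMUSG00000021756, chr13:112464070-112510086 on the plus strand), the gp130 chain, had 166, 171 and 179 CPM in uridine cultures, 199.7, 199 and 201 in vehicle cultures, 73.3, 71.7 and 60.0 in uncultured aged cells and 74.9, 78.0 and 79.3 in uncultured young cells. Every cultured library was above every uncultured one. It rose in uridine (log2 fold change 1.33, SE 0.0481, adjusted p = 9.55e-24) and vehicle cultures (log2 fold change 1.55, SE 0.0480, adjusted p = 6.17e-26) against uncultured aged cells and was lower in uridine than in vehicle cultures (-0.22). The smaller fall with age (-0.18) was lost without aged replicate 3 (adjusted p 0.0906). Il6ra, which binds IL-6 before gp130 does, averaged 89.4 ± 1.08 CPM in uridine cultures, 74.4 ± 2.09 CPM in vehicle cultures, 68.6 ± 1.79 CPM in uncultured aged cells and 108 ± 2.96 CPM in uncultured young cells (SD, n = 3 each). It was lower with age (-0.65) and higher in uridine than in vehicle cultures (0.27). Its call in vehicle cultures against uncultured aged cells was lost without aged replicate 1 or vehicle replicate 3 (adjusted p 0.0758 to 0.0852), and with DESeq2 in place of edgeR (adjusted p = 0.0522).

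Il12rb2, the signalling chain of the IL-12 receptor, had 11.2, 9.52 and 12.8 CPM in uridine cultures, 14.1, 15.9 and 15.8 in vehicle cultures, 1.46, 2.44 and 1.31 in uncultured aged cells and 5.2, 3.89 and 5.19 in uncultured young cells. The cultures were highest and uncultured aged cells lowest, with no overlap. It fell by 1.46 on the log2 scale with age and rose by 2.69 in uridine and 3.14 in vehicle cultures, but 40.0% of its exon bases are shared with Serbp1 on the other strand. Its lower call in uridine against vehicle cultures was lost without uridine replicate 2 (adjusted p 0.0737). Il12rb1, its partner chain, rose with age (0.79) and in both cultures against uncultured aged cells (0.43 in uridine, 0.95 in vehicle cultures). Il31ra, the IL-31 receptor, had 6.25, 5.68 and 5.02 CPM in uridine cultures, 2.21, 2.64 and 2.54 in vehicle cultures, 5.53, 5.84 and 3.38 in uncultured aged cells and 12.0, 13.6 and 12.1 in uncultured young cells. Young cells were highest and vehicle cultures lowest. It fell by 1.35 with age and was higher in uridine than in vehicle cultures (log2 fold change 1.2, SE 0.189, adjusted p = 3.02e-06); with the young-like share subtracted that value was -0.17 (adjusted p = 0.739). Il11ra1 rose with age (0.86) and was lower in both cultures than in uncultured aged cells, though its reads and those of the near-identical Il11ra2 copies are uncertain. Il27ra was higher with age (0.52). Its lower call in uridine against vehicle cultures was lost without vehicle replicate 1, vehicle replicate 3, uridine replicate 1, uridine replicate 2 or uridine replicate 3 (adjusted p 0.0722 to 0.153).

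**Figure D3:**
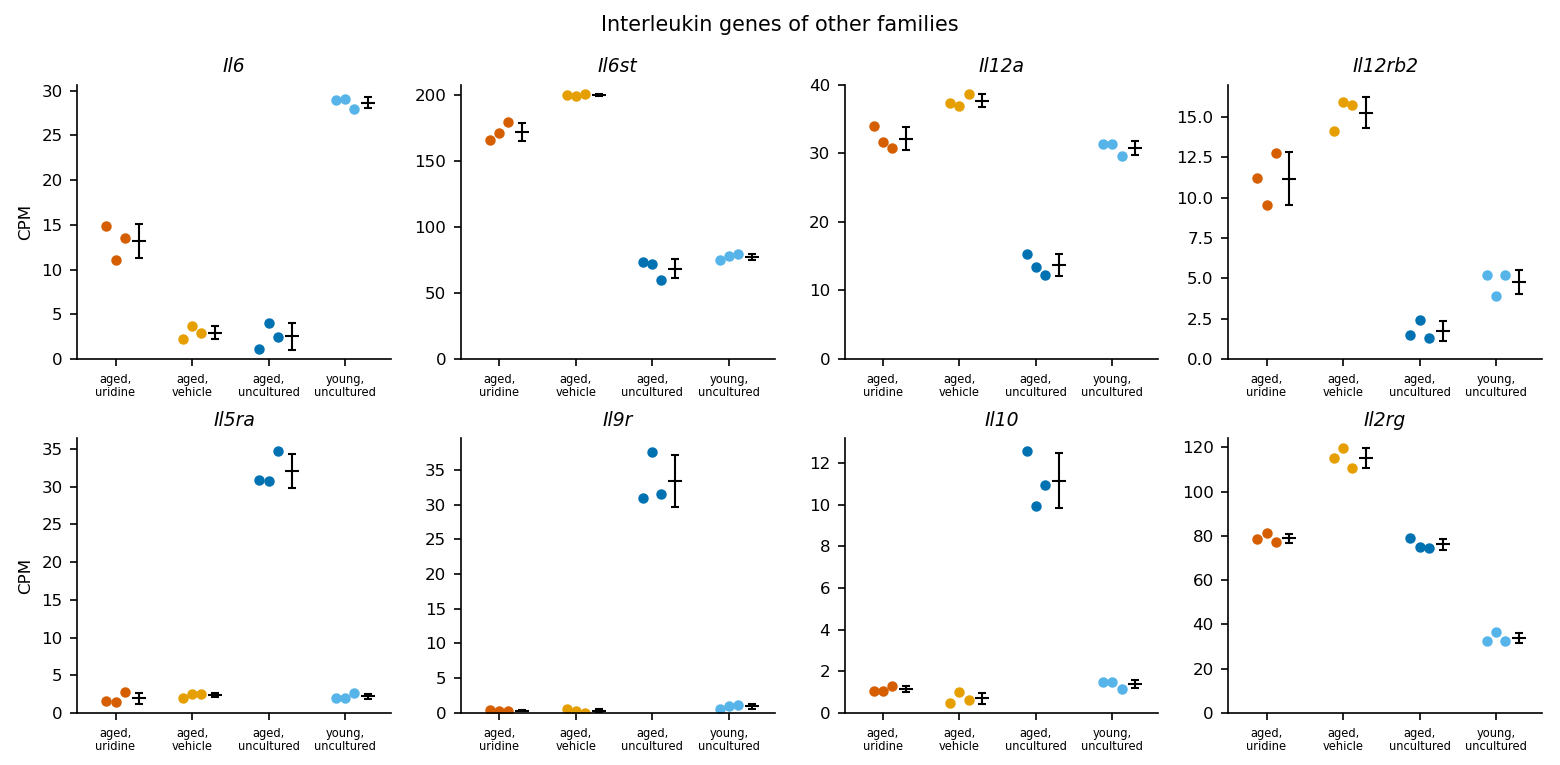
Level of Il2rg, Il9r, Il6 and other interleukin genes outside the IL-1 family in CPM in each library (points), with the group mean and SD beside them, for the same 4 groups. Il9r is at a mean of 33.4 CPM in uncultured aged cells and below 1 CPM in the other groups, whereas Il6 is at 13.2 CPM in uridine and 2.94 CPM in vehicle cultures.

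In the IL-17 family, Il17ra, the chain common to most IL-17 receptors, averaged 157 ± 6.69 CPM in uridine cultures, 116 ± 2.87 CPM in vehicle cultures, 146 ± 2.59 CPM in uncultured aged cells and 226 ± 6.94 CPM in uncultured young cells (SD, n = 3 each). Young cells were highest. It was lower with age (-0.63) and higher in uridine than in vehicle cultures (0.44, adjusted p = 2.77e-12). Its higher call in uridine cultures against uncultured aged cells (0.11) was lost without uridine replicate 2 (adjusted p 0.0608) and with DESeq2 (adjusted p = 0.0932), and it turned to -0.26 with the young-like share subtracted. Il17rb (ENSMUSG00000015966, chr14:29996135-30008896 on the minus strand), the receptor chain for IL-25, had 5.17, 5.22 and 5.82 CPM in uridine cultures, 0.473, 0.604 and 1.02 in vehicle cultures, 9.79, 11.3 and 11.0 in uncultured aged cells and 13.3, 14.5 and 13.6 in uncultured young cells. Vehicle libraries were far below all others, none reaching 2 CPM. It fell in vehicle cultures against uncultured aged cells (log2 fold change -3.93, SE 0.207, adjusted p = 8.68e-19) and less in uridine cultures (-0.98), and it had the smallest adjusted p of the interleukin genes between the cultures, higher in uridine (log2 fold change 2.95, SE 0.222, adjusted p = 1.65e-13). With the young-like share subtracted that value was 0.77 (adjusted p = 0.133). The lower level with age (-0.37) was lost as a call without young replicate 2 or aged replicate 1 (adjusted p 0.0560 to 0.0707).

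The other tested IL-17 genes were below 5 CPM in every group. Il17re was lower in both cultures than in uncultured aged cells, by 0.75 on the log2 scale in uridine and 0.75 in vehicle cultures, the uridine call being lost without uridine replicate 2 (adjusted p 0.118). Il17rc was higher with age (1.03, lost without aged replicate 2 (adjusted p 0.0741)) and lower in uridine cultures than in uncultured aged cells (-0.98, lost without aged replicate 2 (adjusted p 0.0925)). Il17d was higher with age (1.36, lost without young replicate 2, young replicate 3, aged replicate 2 or aged replicate 3 (adjusted p 0.0545 to 0.110)) and lower in both cultures. Il17c passed no test.

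Receptors of the IL-10 family were led by Il10ra, the IL-10 binding chain, and Il10rb, a chain shared with other IL-10 family receptors. Il10ra averaged 34.9 ± 2.23 CPM in uridine cultures, 38.0 ± 0.682 CPM in vehicle cultures, 49.3 ± 1.66 CPM in uncultured aged cells and 32.0 ± 1.88 CPM in uncultured young cells (SD, n = 3 each), higher with age (0.62) and lower in both cultures. Il10rb rose with age as well (0.65) but was higher in vehicle cultures than in uncultured aged cells (0.31) and lower in uridine than in vehicle cultures (-0.42). Its exons share 14.9% of their bases with the overlapping Gm21970. Il20rb, a chain of the IL-20 receptors, had 2.71, 2.05 and 1.84 CPM in uridine cultures, 2.94, 2.97 and 2.77 in vehicle cultures, 8.72, 4.38 and 7.58 in uncultured aged cells and 2.5, 1.97 and 1.09 in uncultured young cells. Uncultured aged libraries were above all others. It rose by 1.88 with age and fell by 1.65 in uridine and 1.25 in vehicle cultures. Il20ra stayed below 1 CPM on average in every group, and its culture calls were lost without aged replicate 1, aged replicate 3, uridine replicate 1 or uridine replicate 3 (adjusted p 0.0543 to 0.132) for uridine and without aged replicate 1, aged replicate 2, aged replicate 3, vehicle replicate 2 or vehicle replicate 3 (adjusted p 0.0563 to 0.125) for vehicle cultures. Il22ra2 passed no test.

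Outside these families, Il16, a T cell attractant made as a longer precursor, averaged 45.9 ± 1.13 CPM in uridine cultures, 46.7 ± 1.9 CPM in vehicle cultures, 61.0 ± 6.13 CPM in uncultured aged cells and 48.6 ± 3.51 CPM in uncultured young cells (SD, n = 3 each). It was higher with age (0.33) and lower in both cultures. Its exons share 15.3% of their bases with Stard5 on the other strand. Il34, another ligand of the CSF1 receptor, was below 2 CPM on average in every group and highest in vehicle cultures, at 1.08 CPM. Its age call, higher in aged cells on 10 counts against 2 counts in young cells, was lost without young replicate 2, aged replicate 1 or aged replicate 3 (adjusted p 0.0728 to 0.116). The ratio of those counts per effective library size was 6.44 (95% counting interval 1.37 to 60.5).

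Genes that relay interleukin signals but carry other symbols were counted over a hand-written list, of which 47 were tested. With age 19 were higher, 16 lower and 12 not called, against 33.2% higher and 32.1% lower of all genes. In uridine cultures against uncultured aged cells 26 were higher and 15 lower, against 35.8% and 32.1% of all genes. In vehicle cultures against uncultured aged cells 24 were higher and 15 lower, against 35.4% and 35.1%. In uridine against vehicle cultures 8 were higher and 19 lower, against 20% and 18.1%. The same shares of all genes stand beside the counts of the smaller lists below. Of the 11 Janus kinases and STATs, 9 were higher in uridine and 8 in vehicle cultures than in uncultured aged cells. Stat2, which mediates interferon signals, rose by 2.29 on the log2 scale in uridine and 2.8 in vehicle cultures and was lower in uridine than in vehicle cultures (-0.51). Myd88, the adaptor of the IL-1 receptors, rose by 0.70 in uridine and 1.18 in vehicle cultures. Of the 11 tested shared or partner receptor chains and their ligands, 3 were higher and 6 lower in uridine cultures and 3 higher and 8 lower in vehicle cultures than in uncultured aged cells. Among the 3 higher ones, Csf2rb2, a beta chain that pairs with the IL-3 receptor in mice, rose by 3.11 in uridine and 3.53 in vehicle cultures. Of the 7 inflammasome and release genes, 6 were higher and 1 lower with age, and 1 was higher and 5 lower in uridine than in vehicle cultures. The 1 that ran the other way in both was Nlrp3, an inflammasome sensor upstream of IL-1β release, which fell by 2.0 with age and was higher in uridine than in vehicle cultures (1.03). Casp1, the protease that cleaves pro-IL-1β, rose by 0.45 with age and was lower in uridine than in vehicle cultures (-0.44). Of the 7 feedback genes, 3 were higher and 1 lower in uridine cultures and 3 higher and 2 lower in vehicle cultures than in uncultured aged cells. The 1 lower in uridine cultures was Socs3, an inhibitor of gp130 signalling, which rose by 1.25 with age and fell in both cultures (-2.24 in uridine, -3.15 in vehicle cultures).

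**Figure D4:**
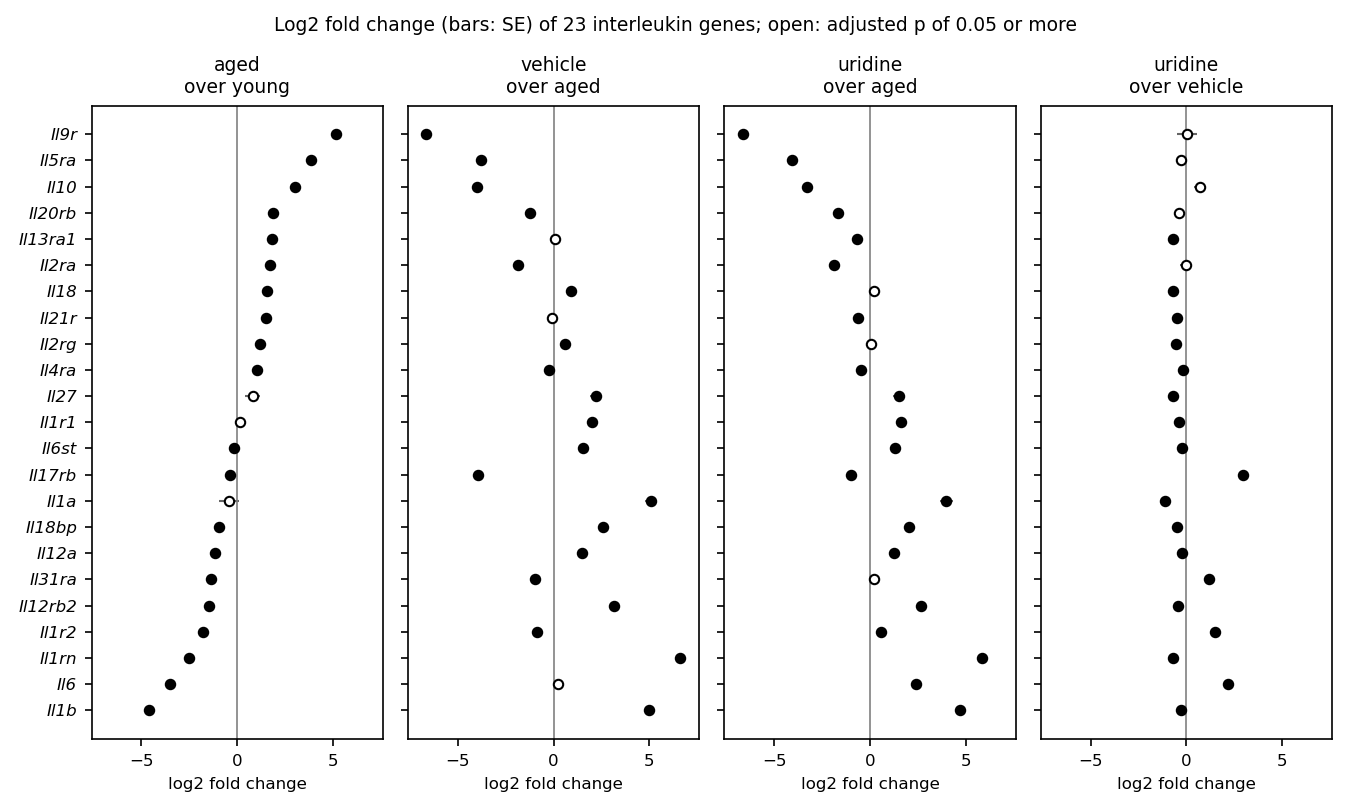
Log2 fold change of the 23 interleukin genes that reached 5 CPM in a group and a called change of at least 1, in the 4 comparisons, with genes in rows from the largest rise to the largest fall with age and the fold change on the horizontal axis. Bars are standard errors, and filled points had an adjusted p under 0.05. The changes between uridine and vehicle cultures are smaller than those against uncultured aged cells for most of these genes, and Il6 and Il17rb lie to the right of 2.

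Where a gene had moved with age, its direction between the cultures was counted, since the 2 comparisons share no library. Of the 20 interleukin genes higher in aged than in young cells, 10 were lower in uridine than in vehicle cultures and 0 were higher, against 27.0% and 11.7% of all genes higher with age. The 10 were Il10rb, Il11ra1, Il12rb1, Il13ra1, Il15ra, Il18, Il21r, Il27ra, Il2rg and Il4ra. Of the 21 lower with age, 8 were higher in uridine cultures (Il17ra, Il17rb, Il1r2, Il31ra, Il33, Il4, Il6 and Il6ra) and 6 were lower (Il12a, Il12rb2, Il18bp, Il1b, Il1rn and Il6st), against 38.0% and 14.1% of all genes lower with age. With the young-like share subtracted, 1 of the 20 was lower (Il2rg), and none of the 21 was called.

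A second measure set the uridine level between the vehicle and young levels, which is a different comparison from the count of directions above. The vehicle mean enters both parts of its fraction. The young and vehicle libraries did not overlap for 44 of the 51 genes, and in all 44 the uridine mean lay between the young and vehicle means, with a median fraction of 0.394 of the way from vehicle to young. Over all genes tested 11700 met that condition, the uridine mean lay between in 86.6% of them, and the median fraction was 0.398. Interleukin genes at least 2 times apart numbered 26. The 10 that were higher in young cells had fractions of 0.0188 to 0.397 (median 0.318), and the 16 that were higher in vehicle cultures had fractions of 0.230 to 0.556 (median 0.435). Of the 26, 6 lay within the quartiles of the 145 young-high genes. Il6 was at 0.397, Il17rb at 0.358, Il1r2 at 0.335 and Il31ra at 0.316, while Il9r was at 0.0188 on means below 1 CPM.

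**Figure D5:**
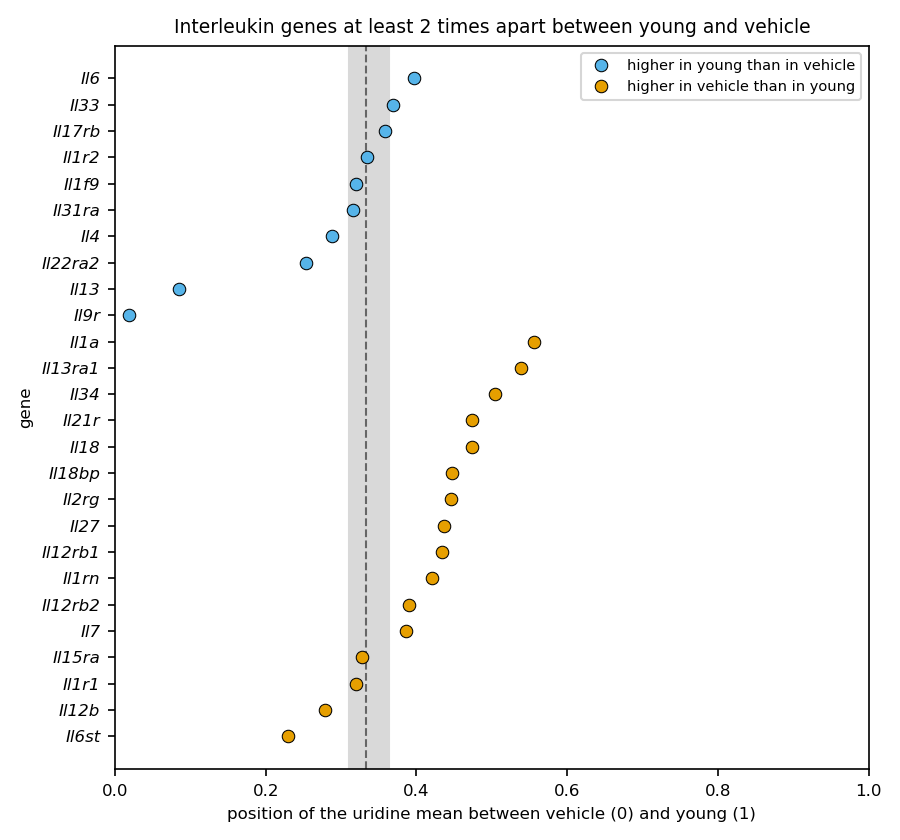
Position of uridine cultures between vehicle cultures (0) and uncultured young cells (1) for the 26 interleukin genes at least 2 times apart between those groups. The horizontal axis is the fraction of the distance covered by the uridine mean, and the band marks the quartiles, 0.310 to 0.363, of 145 genes at least 10 times higher in young cells. All 26 points lie between 0 and 0.556.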

How the data were processed

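Total RNA was taken up in Trizol and poly-T beads selected the messenger RNA for paired reads of 150 bp, per the labels' protocols. HISAT2 2.0.5 served as the aligner and mm10 as the genome, per the submitters' processing notes. The authors deposited 1 table of raw counts per gene, with 54532 Ensembl IDs, and it was used as it stood. The counting program and its use of strand were not stated, so overlapping and antisense genes are uncertain. No value column was left unused (0). GENCODE M21 gave symbols, biotypes and exon lengths for 54495 IDs. The 37 others held at most 0.00589% of a library's counts.

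Groups came from the sample titles. After edgeR's filterByExpr, TMM scaling and a quasi-likelihood fit of 1 mean per group to all 12 libraries (edgeR 4.0.16, R 4.3.3, residual df 8, prior df 26.47), 16675 genes were tested by F-test in 4 comparisons. Adjusted p-values are Benjamini-Hochberg over all of them, with a threshold of 0.05, and fold changes are on the log2 scale. The fit was tested on simulated data. Library totals of 16785065 to 19025802 counts bound a gene with 0 counts in a group at 3 counts, for counting error only, at 95% confidence. Within-group pairs of libraries differed by more than sampling noise (chi-square per degree of freedom 2.27 to 3.94), so none was merged.

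Any interleukin gene could be named. Values in every library were given where a group mean reached 5 CPM and a comparison was called at a log2 fold change of at least 1, and the fullest statistics went to at most 8 genes a comparison with the smallest adjusted p. Il33, and Il13 in aged cells, fell below this rule and are given by library, a choice made after their values were seen, and other genes below the rule are given by means. The genes and lists were chosen with earlier results of these data known.

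Deviations from the group means of same-numbered libraries correlated at -0.0187 to 0.0207 over genes, so the replicate numbers did not pair the samples. Alternatives were DESeq2 1.42.0, its size factors, no immunoglobulin genes, 2 other low-count filters, the 6 libraries of a comparison, a replicate block, a log2 threshold of 1, subtraction of the young-like share, and leaving out each library. One marker list is not reported here.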

Additional observations from a re-analysis of the deposited data

How the results depend on the processing

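Over 204 gene-by-comparison tests of the 51 interleukin genes, 149 were called. The replicate block gave 41, 40, 41 and 27 interleukin genes for aged against young, vehicle against aged, uridine against aged and uridine against vehicle, 10768, 11667, 11246 and 6250 of all genes, and 34, 39, 41 and 27 pathway genes, and it changed the call of none of the 204. Leaving out immunoglobulin genes changed none either. DESeq2 lost Il6ra in vehicle against aged and Il17ra in uridine against aged, the DESeq2 size factors lost the same Il17ra call, and no low-count filter lost Il27ra in uridine against vehicle. Without a low-count filter, Il17a, Il24 and the scaffold copy of Il11ra2 were also called in each comparison that includes uncultured aged cells. So were Il1rapl2 in aged against young and vehicle against aged, and Il23r in aged against young. The stricter filter left out some of the low genes and added Il20ra in aged against young. Fitting only the 6 libraries of a comparison lost Il6ra, Il17ra and Il1rl2 as well and gained Il1rap in uridine against vehicle. Il34 in aged against young, Il12b and Il20ra in uridine against aged, and Il33 in both uridine comparisons did not pass the low-count filter on those 6 libraries. They were therefore not tested there, rather than tested and not called.

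With a log2 threshold of 1, which by construction calls fewer genes, interleukin calls were 24 (13 higher, 11 lower) in aged against young, 21 (14 higher, 7 lower) in vehicle against aged, 21 (15 higher, 6 lower) in uridine against aged and 7 (1 lower) in uridine against vehicle. All genes then gave 3613, 4801, 4174 and 1172 calls, and pathway genes 7, 14, 10 and 3.

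Subtracting the young-like share left 1 interleukin call in uridine against vehicle (0 higher, 1 lower), 7 pathway calls and 2740 calls over all genes. Under it, log2 fold changes turned round for Il17ra (-0.26), Il1r2 (-0.88) and Il31ra (-1.17) in uridine against aged, and for Il1r1 (0.0079), Il31ra (-0.17), Il4 (-0.43), Il4ra (0.020) and Il6st (0.12) in uridine against vehicle. The uridine against aged calls of Il33 (adjusted p = 0.078) and Il1rap (adjusted p = 0.0613) were lost, and Il18, Il2rg and Il34 became called.

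Without 1 library at a time, interleukin calls ranged from 37 to 45 in aged against young (18 to 23 higher, 18 to 22 lower), 39 to 42 in vehicle against aged (22 to 25 higher, 17 lower), 38 to 42 in uridine against aged (22 to 25 higher, 15 to 17 lower) and 22 to 27 in uridine against vehicle (7 to 9 higher, 15 to 19 lower). All genes ranged from 10399 to 11019, 11372 to 11944, 10892 to 11489 and 5461 to 6627, and pathway genes from 33 to 36, 38 to 41, 39 to 41 and 25 to 28. Il24, Il23r and Il23a, below the low-count filter in the main fit, passed it and were called in some of these fits. The ranges therefore mix a changed set of genes with calls lost or gained. In vehicle against aged, 16 were lower in the main fit. Calls that held without any 1 library were 33 of 41, 38 of 40, 34 of 41 and 20 of 27 in the same order.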

Other observations

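Among the 13 interleukin genes below the low-count filter, several had their counts in 1 group. Il17a, the gene of the cytokine of T helper 17 and gamma-delta T cells, had 0 counts in uridine cultures, 0 in vehicle cultures, 23 in uncultured aged cells and 0 in uncultured young cells. With a floor of 3 counts over a group, it was at least 9.88-fold higher in aged than in young cells. Il24, an IL-20 subfamily cytokine, had 2, 2, 34 and 2 counts in the same 4 groups. Its ratio of aged to young cells was 21.9 (95% counting interval 5.61 to 188), and its intervals against the cultures also excluded 1. Il23r, a chain of the IL-23 receptor, had 9 counts in uridine cultures, 20 in vehicle cultures, 18 in uncultured aged cells and 1 in uncultured young cells. The aged to young ratio of Il23r was 23.2 (95% counting interval 3.66 to 966).

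Il1rapl2 had 1, 0, 13 and 0 counts and Il21 had 0, 2, 8 and 0 counts in uridine cultures, vehicle cultures, uncultured aged cells and uncultured young cells. Il22 had 0, 4, 0 and 9 counts in that order. The scaffold copy of Il11ra2 had 12 counts, all in aged replicate 3, while the chromosome 4 copy had 4, 5, 5 and 1. The remaining 5 were spread over the groups. Il23a, the p19 subunit of IL-23, had 19, 23, 10 and 8 counts and Il17f had 6, 6, 15 and 18. Il11, Il17rd and Il4i1, which encodes an amino acid oxidase rather than an interleukin, had between 4 and 19 counts in each group, and 83.9% of the exon bases of Il4i1 are shared with Tbc1d17. These intervals cover counting error only and do not measure the variation between libraries. T cell markers, given above, were also highest in uncultured aged cells, and their part in these counts was not tested.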
